A study of Homo sapiens with 12 samples.

Results

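The genes described are FOS, FOSB, FOSL1, FOSL2, JUN, JUNB, JUND and ATF3, which encode subunits of the AP-1 transcription factor, and EGR1 and EGR3, which encode early growth response factors. They were chosen by name, and their loci were defined as the gene record of GENCODE release 44 on hg38 with 10 kb added to each side. The 10 genes, among 19970 protein-coding genes, hold 134 of the 158028 deposited regions, 51 for H2A.Z and 83 for its acetylated form (H2A.Zac).

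AP-1 is a dimer of basic leucine zipper (bZIP) proteins, in which FOS proteins pair with JUN proteins and JUN proteins also pair with each other or with ATF proteins. It binds a short palindrome known as the AP-1 site, whereas EGR proteins bind GC-rich sites through zinc fingers. Many of these genes are immediate-early genes, whose transcription rises within minutes of growth factor or stress signals through MAP kinases and serum response factor (SRF), without new protein synthesis, and H2A.Z is a histone variant that commonly flanks the start sites of such poised promoters.

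ChIP-seq was performed in K562, a line from a human chronic myeloid leukemia, to ask how loss of TRRAP from the TIP60 complex affects H2A.Z and H2A.Zac. In both lines compared, endogenous EP400, the scaffold of the complex, carries a dTAG degron and was removed with 500 nM dTAGV-1 for 24 h, and a transgene at the AAVS1 locus supplies either WT EP400 or ΔTRRAP EP400, which lacks the SANT and HD domains. Each line is 1 clone, so the genotype and the clone cannot be told apart. Input, H2A.Z and H2A.Zac libraries were made from 2 biological replicates of each line, 12 libraries in total. The deposited lists hold 1 comparison of merged replicates per mark, and each region is lost (higher in WT), gained (higher in ΔTRRAP) or unchanged.

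Each region carries a single value, the authors' log10 likelihood ratio between the lines, which is at least 3.10 in the changed lists and at most 2.90 in the unchanged lists. It is called the ratio here. Deep or wide regions can reach high ratios with small changes, and it must not be read as a fold. Library depth is unknown here, values per replicate are absent, and no test between the lines could be made. Intervals are exact 95% binomial intervals and cover counting error only. They treat regions as independent, although regions of 1 locus can be parts of 1 peak. Distances are given in kb from the start of the canonical transcript (TSS) along the gene, and the TSS window reaches 1 kb to each side. Fewer cells carrying a mark and less of the mark per cell cannot be told apart in these data.

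The cell type label of the samples is lymphoblast. Of 9 erythroid and K562 marker genes, 8 had an H2A.Zac region in the TSS window and 4 an H2A.Z region. GATA1, an erythroid master factor, had a region of neither mark in that window. Its gene record with 10 kb to each side held 3 unchanged H2A.Z, 5 unchanged H2A.Zac and 4 gained H2A.Zac regions. Among lymphoid markers, CD3E, CD79A and EBF1 had regions of both marks in the TSS window. PTPRC had H2A.Zac alone there, CD4 H2A.Z alone, and PAX5 and IL7R neither. The list of regions therefore holds starts of both kinds, and it gives no measure of expression.

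Lost and gained H2A.Zac regions occurred together at 7 of the 10 loci, against 39.2% of protein-coding loci with an H2A.Zac region. FOSB and FOSL2 had lost but no gained regions, and JUN had neither. A locus with more regions can more readily hold both classes, and the 10 loci held from 2 to 17 H2A.Zac regions each. The 7 of 10 was neither adjusted for the number of regions nor tested. For H2A.Zac, 22 regions were lost, 41 unchanged and 20 gained, so that 50.6% were changed (39.4 to 61.8%, n = 83 regions), against 52.1% of all H2A.Zac regions. For H2A.Z, 8 regions were lost, 34 unchanged and 9 gained, or 33.3% changed (20.8 to 47.9%, n = 51 regions), against 34.0% of all. Among all H2A.Zac regions 25.9% were lost and 26.3% gained, and among all H2A.Z regions 19.8% were lost and 14.1% gained. The changed share at the 10 genes was thus near the background for both marks.

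Gained regions made up 47.6% of the changed H2A.Zac regions (32.0 to 63.6%, 20 of 42), against 50.4% in the whole list. The share for H2A.Z was 52.9% (27.8 to 77.0%, 9 of 17), against 41.6%, and this background lies within the interval. Lost and gained H2A.Zac regions covered similar lengths at the loci, 22.96 and 21.03 kb, beside 38.5 kb of unchanged regions. For H2A.Z the lengths were 4.40 kb lost, 5.17 kb gained and 29.8 kb unchanged. Neither direction prevailed over the 10 loci as a whole, and the genes differed among themselves.

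**Figure D1:**
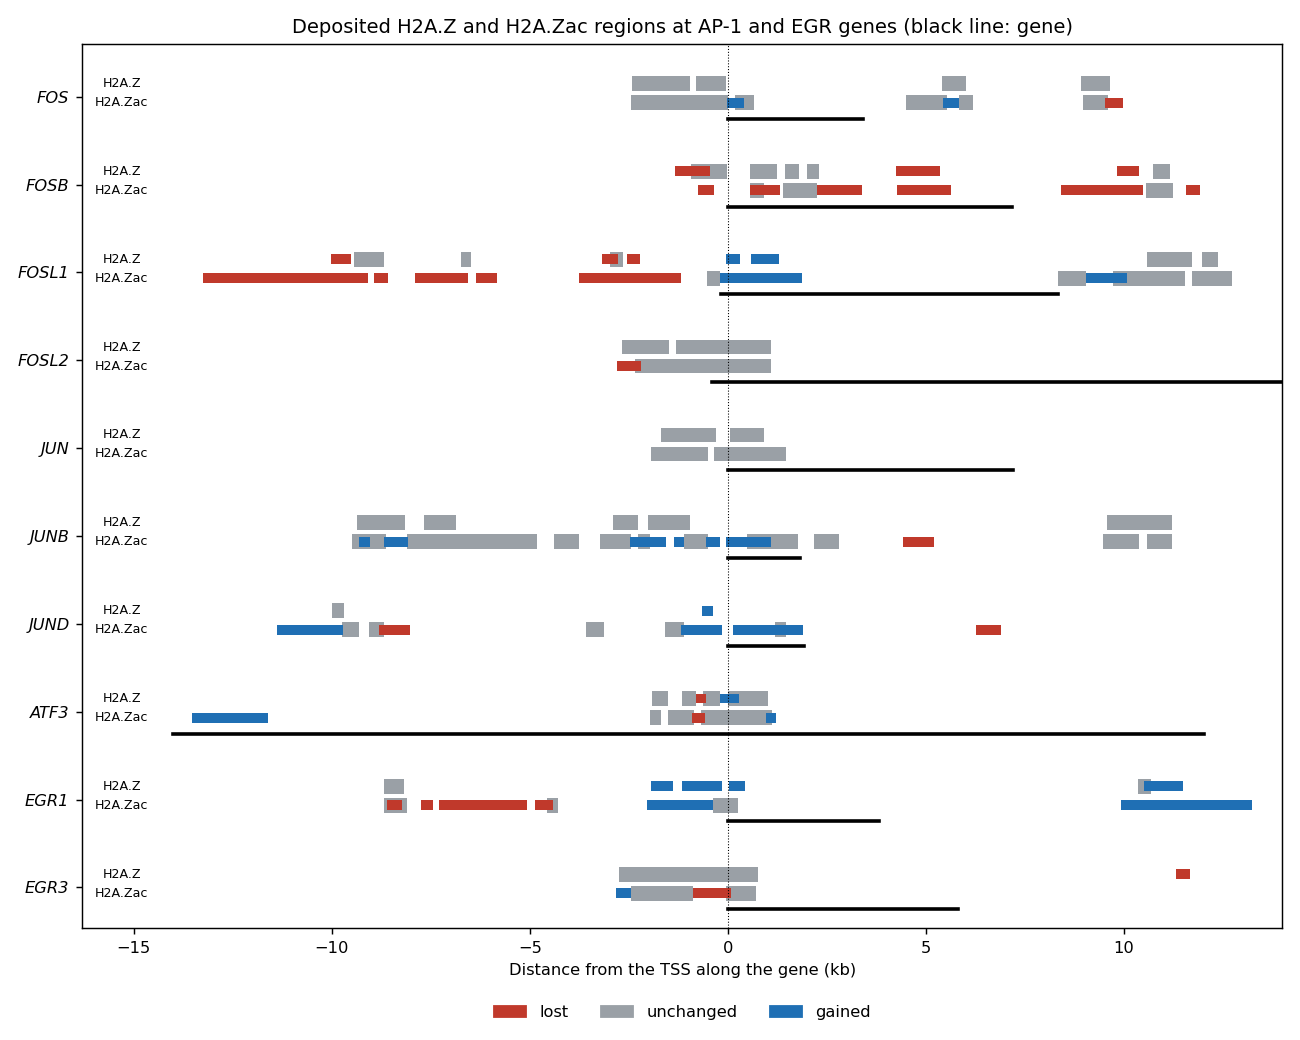
Lost (red), unchanged (grey) and gained (blue) regions of H2A.Z (upper row of each gene) and H2A.Zac (lower row), against the distance from the TSS along the gene in kb, with the gene as a black line. JUN holds unchanged regions only, FOSB holds lost but no gained regions, and EGR1 has gained regions on both sides of its TSS; regions of ATF3 beyond the axis are described in the text.

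The classes were counted by place. Of the 26 H2A.Zac regions in a TSS window, 4 were lost, 14 unchanged and 8 gained. Upstream of the window and outside the gene record, 11 were lost, 13 unchanged and 7 gained. Downstream of the genes 5 were lost and 3 gained, and within gene records outside the window 2 were lost and 2 gained. These 2 gained regions are at ATF3, inside its record but upstream of its canonical start. H2A.Z had 2 lost, 12 unchanged and 6 gained regions in TSS windows, and 3 lost, 10 unchanged and 1 gained upstream, outside the gene records. These counts cover few regions, and they were neither tested nor set against the same zones of other genes.

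All 10 genes had a region of both marks in the TSS window, against 64.2% of protein-coding genes for H2A.Zac and 62.4% for H2A.Z. A gained H2A.Zac region was present in the window of 6 genes (FOS, FOSL1, JUNB, JUND, ATF3 and EGR1), where 57.3% of the 12819 protein-coding genes with a region had one. A lost H2A.Zac region was present in 3 (FOSB, ATF3 and EGR3), against 26%. JUN and FOSL2 had unchanged H2A.Zac alone in the window. For H2A.Z, 4 genes had a gained region in the window (FOSL1, JUND, ATF3 and EGR1) and 2 a lost one (FOSB and ATF3), against 22.3% and 10.5% of the 12461 genes with a region. The counts for H2A.Zac were close to the background, and those for H2A.Z rest on 4 and 2 genes. With a ratio of at least 5, 0 genes had a lost H2A.Z region in the window, and with regions of at least 500 bp, 2 had a gained and 1 a lost one.

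Within the loci, 9 of 10 genes had a lost H2A.Zac region and 7 a gained one, against 59.5% and 70.9% of the protein-coding loci with an H2A.Zac region. Both kinds were found at 7 genes (FOS, FOSL1, JUNB, JUND, ATF3, EGR1 and EGR3), where 39.2% of the 16784 protein-coding loci with an H2A.Zac region had both. Both lost and gained H2A.Z occurred at FOSL1 and ATF3, 2 of 10 loci against 9.17% of 16343. The loci differ in length, in gene density and in their number of regions, and these shares were not adjusted for any of these. The nearest lost and gained H2A.Zac regions of a locus lay between 0.922 kb apart at JUND and 3.68 kb apart at FOS. For H2A.Z the gap was 0.342 kb at ATF3 and 2.17 kb at FOSL1.

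**Figure D2:**
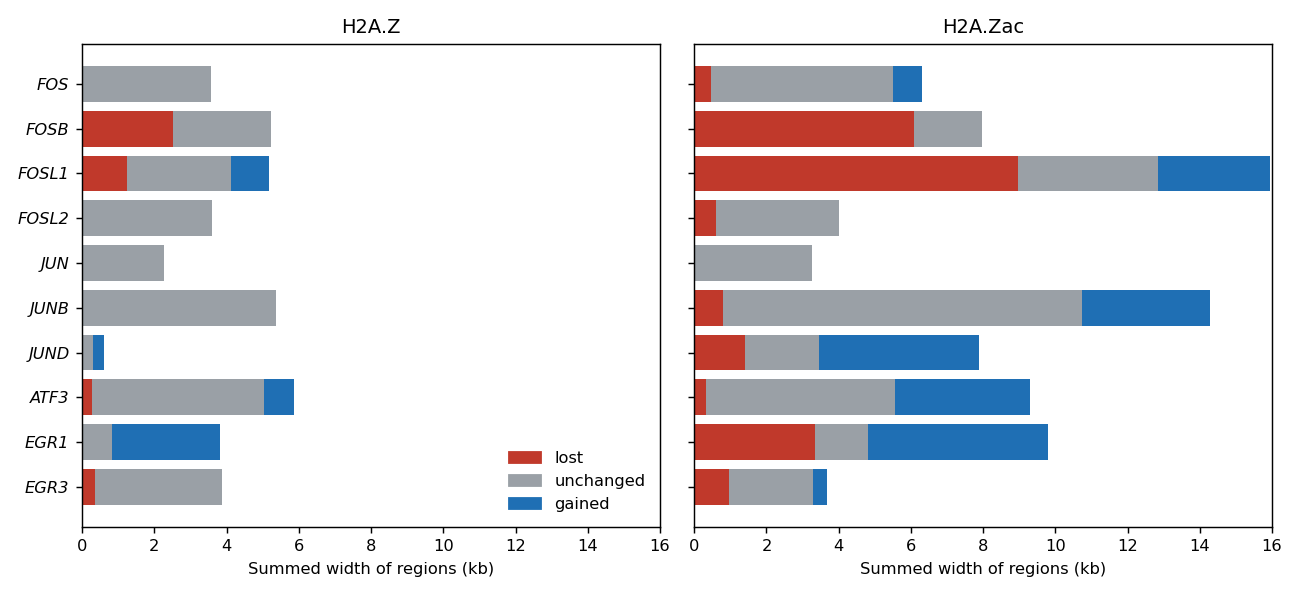
Summed width in kb of lost, unchanged and gained regions at each locus, for H2A.Z (left) and H2A.Zac (right), stacked as deposited, so that bases in overlapping regions of different classes count in each. FOSL1 carries the longest lost H2A.Zac (8962 bp) and EGR1 the longest gained H2A.Zac (4987 bp) of the 10 loci.

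Changed acetylation lay on H2A.Z changed in the same direction, on unchanged H2A.Z or on none. Counting a region as on another when that covered at least 25% of it, 6 of the 22 lost H2A.Zac regions lay on lost H2A.Z, 9 on unchanged H2A.Z and 0 on gained H2A.Z. Of the 20 gained H2A.Zac regions, 6 lay on gained H2A.Z, 9 on unchanged and 0 on lost. A region can lie on more than 1 class and then counts in each, so that 12 of the 22 lost and 13 of the 20 gained regions lay on H2A.Z of any class. In the whole lists, 36.4% of lost and 45.9% of gained H2A.Zac regions lay on unchanged H2A.Z, and 55.0% and 57.1% on any class. In the other direction, 7 of the 8 lost H2A.Z regions lay on lost H2A.Zac and 7 of the 9 gained on gained H2A.Zac. Over the whole lists, 65.9% of lost and 65.8% of gained H2A.Z regions lay on H2A.Zac of the same direction, and 28.6% of lost and 18.7% of gained H2A.Zac regions on H2A.Z of the same direction. In base pairs, 3.41 kb were lost for both marks, 4.05 kb were gained for both, and 0 kb were changed in opposite directions. The genome showed the same rarity of opposite changes, with 5 of 24482 lost H2A.Zac regions on gained H2A.Z and 8 of 24844 gained ones on lost H2A.Z.

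Much of the changed acetylation lay outside listed H2A.Z. By region, 54.5% of lost and 65.0% of gained H2A.Zac lay on H2A.Z of any class, against 55.0% and 57.1% of the whole lists. Both backgrounds lie within the intervals (32.2 to 75.6% and 40.8 to 84.6%). Over the 10 loci 12.7 kb of lost and 11.9 kb of gained H2A.Zac had no H2A.Z region beneath them. A further 3.80 kb of lost and 3.68 kb of gained H2A.Zac lay over unchanged H2A.Z. Of all 83 H2A.Zac regions, 51 lay on an H2A.Z region of any class, a share of 61.4% (50.1 to 71.9%), against 60.5% of the whole list. Conversely, 50 of the 51 H2A.Z regions lay on H2A.Zac (98.0%, 89.6 to 99.95%), against 82.8% of all H2A.Z regions. The 51 regions come from 10 loci and are not independent, and the difference was not tested. A base without a listed region may still carry the mark, since the lists hold only regions that passed the authors' filters.

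The ratios of the changed H2A.Zac regions ran from 4.06 to 27.7 for lost (median 7.38, n = 22) and from 3.44 to 24.7 for gained regions (median 6.22, n = 20), where the medians of the whole lists were 8.27 and 6.87. For H2A.Z they ran from 3.92 to 10.5 for lost (median 4.91, n = 8) and from 5.03 to 9.32 for gained regions (median 7.89, n = 9), against medians of 5.95 and 5.48. A ratio of at least 10 was reached by 7 lost and 7 gained H2A.Zac regions and by 1 lost H2A.Z region, and by 0 gained H2A.Z regions.

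**Figure D3:**
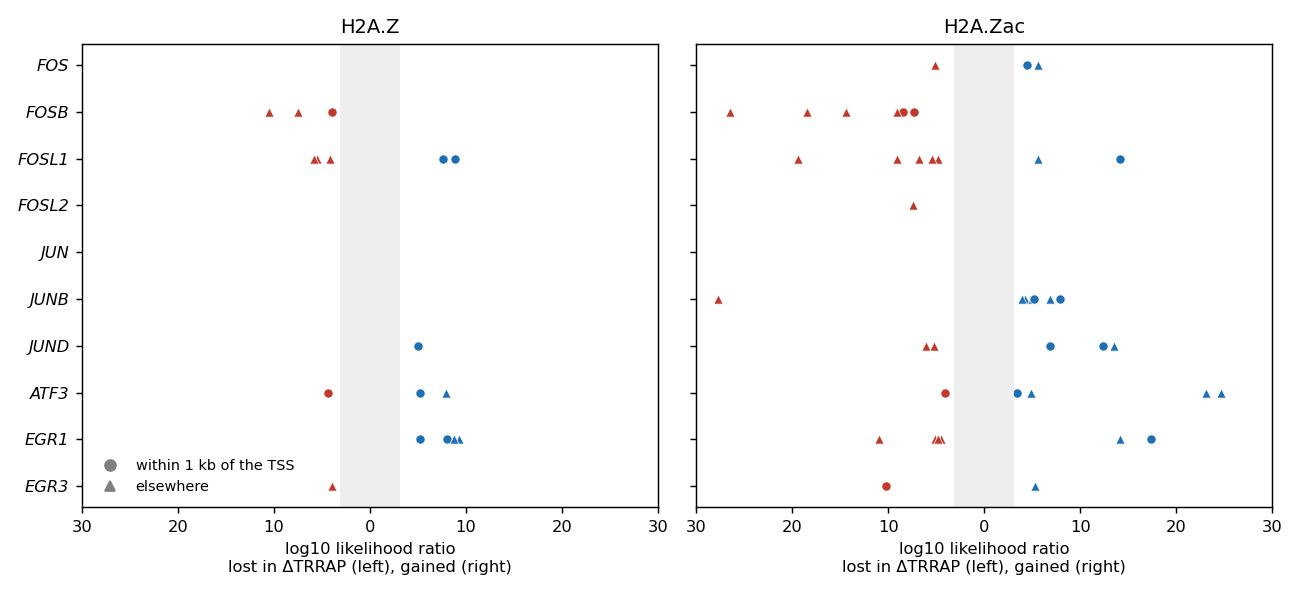
The log10 likelihood ratio of every changed region, with lost regions to the left and gained regions to the right of 0, and circles for regions in the TSS window and triangles for those elsewhere (the grey band holds no changed region). The highest ratios belong to a lost H2A.Zac region downstream of JUNB (27.7) and one in FOSB (26.5), and to gained H2A.Zac regions upstream of the ATF3 TSS (24.7 and 23.1).

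Short DNA motifs were searched on both strands in all member regions. The AP-1 site was TGACTCA or TGAGTCA, the cyclic AMP response element (CRE), bound by ATF and CREB proteins, was TGACGTCA, and the EGR site was GCGTGGGCG or GCGGGGGCG; the CArG box, bound by SRF, was searched in its usual form. The CRE letters do not hold an AP-1 site. The regions held 19 AP-1 sites at 7 genes, 15 EGR sites at 8 genes, 10 CArG boxes at 5 genes and 4 CREs at 3 genes. RefSeq gives the 300 bases around the start (250 before and 50 after) for 8 of the 10 genes. In these, EGR1 had 2 CArG boxes, JUND 1 CRE and FOSL2 1 AP-1 site, and the others held none of these letters. The ATF3 windows are at other starts than the canonical one, whose promoter window was therefore not searched. Over all 35116 such promoters, 4.95% held the AP-1 site, 1.85% the CRE, 5.77% the EGR site and 1.29% the CArG box, and over the 21571 protein-coding ones 4.04%, 2.29%, 7.51% and 1.26%. The site counts within the regions were not set against other genes. In the central 300 bases of the regions, the AP-1 site was present in 3 of 22 lost, 1 of 41 unchanged and 2 of 20 gained H2A.Zac regions of the 10 loci, beside 5.51%, 6.33% and 8.07% of the whole lists. For H2A.Z it was present in 0 of 8 lost, 2 of 34 unchanged and 2 of 9 gained regions, beside 5.03%, 5.80% and 6.37%. The EGR site was present in 1 of 8 lost, 2 of 34 unchanged and 2 of 9 gained H2A.Z regions, beside 0.858%, 3.50% and 1.64%, and in 0 of 22 lost, 3 of 41 unchanged and 0 of 20 gained H2A.Zac regions, beside 1.12%, 2.38% and 2.35%. The CArG box was present in 2 of 34 unchanged H2A.Z and 1 of 41 unchanged H2A.Zac regions and in 0 changed ones, beside 1.33 to 1.87% of the whole lists. The CRE was present in 0 regions, beside 0.135 to 0.575% of the whole lists. These counts are of at most 3 regions, and neighboring regions of both marks share sequence. A match is given as a description of the sequence, not as a bound site. In the sequences that follow, read 5′ to 3′ on the strand of the gene, capitals mark motif matches lying wholly within the stretch. Lower case marks the rest.

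FOS encodes the founding FOS subunit, which needs a JUN partner to bind DNA. The gene lies at chr14:75278826-75282230 on the plus strand with 4 exons. Both H2A.Z and H2A.Zac were unchanged upstream of the start, with ratios of 0.41 for the H2A.Z region from -0.800 to -0.043 kb and 0.79 for the H2A.Zac region from -2.45 to 0.009 kb. A gained H2A.Zac region of ratio 4.50 began at the start, from -0.013 to 0.402 kb over exon 1 and intron 1. Farther on, H2A.Zac was gained from 5.44 to 5.83 kb (ratio 5.57), behind the gene, and lost from 9.51 to 9.98 kb (ratio 5.15). All 4 H2A.Z regions were unchanged, so that acetylation alone was listed as changed at FOS. The upstream CArG box of FOS, in the unchanged stretch, is shown because it is the element through which SRF is known to act on this gene (hg38, chr14:75278468-75278568, plus strand).
FOS CArG box: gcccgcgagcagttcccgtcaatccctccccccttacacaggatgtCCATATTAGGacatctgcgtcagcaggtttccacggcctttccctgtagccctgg

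FOSB encodes a close relative of FOS. It lies at chr19:45467995-45475179 on the plus strand with 4 exons, and the ERCC1 gene record overlaps most of the locus. It was the gene with the most lost regions and no gained region: 3 H2A.Z and 6 H2A.Zac regions were lost, and 5 H2A.Z and 3 H2A.Zac regions were unchanged. The highest ratios were those of the region over intron 3 and exon 4, 26.5 for H2A.Zac (4.27 to 5.63 kb) and 10.5 for H2A.Z (4.25 to 5.35 kb). The H2A.Zac value was higher than that of 94.2% of all lost H2A.Zac regions. In the TSS window H2A.Z was lost from -1.32 to -0.463 kb (ratio 3.92), and H2A.Zac was lost from -0.758 to -0.338 kb (ratio 7.28) and from 0.567 to 1.33 kb (ratio 8.46). Unchanged H2A.Z covered 90% of the last of these, which overlapped an unchanged H2A.Zac region from 0.570 to 0.905 kb (ratio 2.33). Lost H2A.Zac also covered exons 2 and 3 (ratio 9.12) and lay downstream at 8.42 to 10.5 kb (ratio 18.5) and at 11.6 to 11.9 kb (ratio 14.4). Immediately before the start, H2A.Z was unchanged from -0.942 to -0.010 kb (ratio 1.15). This region also holds a CRE from -325 to -318 bp, whose last bases open the printed stretch in lower case. Its CArG box (hg38, chr19:45467676-45467776, plus strand) is shown for comparison with that of FOS.
FOSB CArG box: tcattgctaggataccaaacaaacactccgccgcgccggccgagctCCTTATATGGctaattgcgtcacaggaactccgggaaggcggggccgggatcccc

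Most changed regions around FOSB were lost as well. In the 5-Mb window from 45 to 50 Mb of chromosome 19, without the locus itself, 219 of 544 H2A.Z regions and 345 of 661 H2A.Zac regions were changed. Of the changed H2A.Z regions, 11 of 219 were gained (5.02%, 2.53 to 8.81%), against 41.6% in the whole list. For H2A.Zac it was 84 of 345 (24.3%, 19.9 to 29.2%), against 50.4%. The losses at FOSB thus shared their direction with most changed regions of the window. The part of this stretch in the result at FOSB was not tested. A difference in DNA copy number between the clones was not tested either, since the input libraries were not analysed here.

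**Figure D4:**
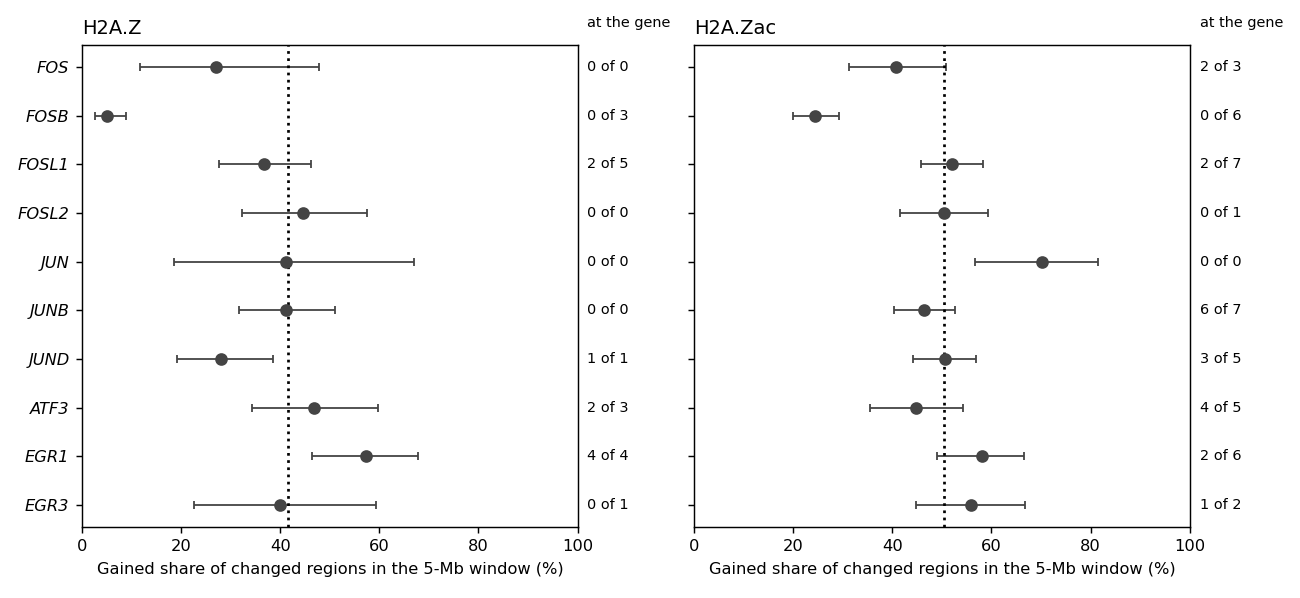
Gained share (%) of the changed regions in the 5-Mb window around each gene, without the gene's own locus, for H2A.Z (left) and H2A.Zac (right), with exact 95% intervals and the share of the whole list as a dotted line; the numbers at the right give gained of changed regions at the gene. The FOSB window stands at 5.02% for H2A.Z and 24.3% for H2A.Zac, below the dotted lines at 41.6% and 50.4%.

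The windows of the other genes stayed nearer the whole list. For H2A.Z the gained share ran from 26.9% around FOS (7 of 26) to 57.3% around EGR1 (51 of 89). The JUND window, at 28.1% (19.1 to 38.6%, 25 of 89), lay below the whole-list share, and the EGR1 window above it (46.4 to 67.7%). For H2A.Zac the shares ran from 40.8% around FOS (42 of 103) to 70.2% around JUN (56.6 to 81.6%, 40 of 57). JUN, whose own regions were all unchanged, hence lay in the window with the highest gained share of H2A.Zac among the 10.

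FOSL1, which encodes the FOS-related subunit FRA-1, lies at chr11:65892049-65900573 on the minus strand with 4 exons. Both marks were gained at its start, and lost regions of both lay upstream, among unchanged ones. H2A.Z was gained from -0.047 to 0.315 kb (ratio 8.88) and from 0.594 to 1.29 kb in intron 1 (ratio 7.59), under a gained H2A.Zac region from -0.204 to 1.88 kb (ratio 14.1). Upstream, 5 H2A.Zac regions were lost between -13.3 and -1.18 kb, with ratios of 4.81 to 19.4. The widest of them, 4165 bp long, was the widest changed region at the 10 genes. The 3 lost H2A.Z regions, with ratios of 4.22, 5.48 and 5.82, all lay wholly within lost H2A.Zac. Upstream, 3 other H2A.Z regions were unchanged (ratios 0.83, 1.28 and 1.62), as was H2A.Zac from -0.523 to -0.205 kb (ratio 1.02). A change of direction thus fell between -1.18 and -0.204 kb, 0.974 kb apart for H2A.Zac.

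Another gained H2A.Zac region at the locus lay from 9.05 to 10.1 kb (ratio 5.60), at the start of CCDC85B (9.72 kb from the FOSL1 TSS), and the start of FIBP lies 11.9 kb away. AP-1 sites were found on both sides of the boundary, at -1 and 996 bp in gained H2A.Z and H2A.Zac and at -12726, -11225 and -11203 bp in lost H2A.Zac. The intronic site at 996 bp is shown as an AP-1 site in chromatin that gained both marks (hg38, chr11:65899339-65899439, minus strand).
FOSL1 intron 1 AP-1 site: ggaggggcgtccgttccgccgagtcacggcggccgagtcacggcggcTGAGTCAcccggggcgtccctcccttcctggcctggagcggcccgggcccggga

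FOSL2, which encodes the subunit FRA-2, lies at chr2:28392448-28417317 on the plus strand with 4 exons. A wide unchanged H2A.Zac region of 3416 bp (ratio 0.72) spanned its start from -2.34 to 1.08 kb, over 2 unchanged H2A.Z regions. The only changed region was a lost H2A.Zac region at the far edge, from -2.79 to -2.20 kb (ratio 7.47). The AP-1 site and the EGR site of FOSL2, 4 and 543 bp from the start, lay in the unchanged regions of both marks.

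JUN encodes the subunit c-Jun, which can bind DNA as a homodimer. The gene, at chr1:58776845-58784048 on the minus strand with 1 exon, was the only one of the 10 with unchanged regions alone. H2A.Z had ratios of 0.74 (0.053 to 0.923 kb) and 0.24 (-1.69 to -0.306 kb), and H2A.Zac 0.35 (-0.352 to 1.47 kb) and 0.73 (-1.94 to -0.504 kb). Of all protein-coding loci with a region, 8.79% had unchanged H2A.Zac alone and 43.2% unchanged H2A.Z alone. None of the 4 motifs was found in the JUN regions.

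JUNB encodes a JUN subunit often described as a weaker activator than c-Jun. It lies at chr19:12791486-12793315 on the plus strand with 1 exon, and the HOOK2 gene record overlaps the locus. Its 5 H2A.Z regions were all unchanged (ratios 0.26 to 0.68), whereas 6 H2A.Zac regions were gained, 10 unchanged and 1 lost. H2A.Zac was gained over the start and the first part of the exon, from -0.050 to 1.08 kb (ratio 7.88), and in 5 shorter regions upstream between -9.31 and -0.207 kb (ratios 3.94 to 6.86). The single lost region, from 4.43 to 5.21 kb downstream, had a ratio of 27.7, the highest of the changed regions at the 10 genes and above 94.9% of the lost list. JUNB therefore held both the largest number of gained H2A.Zac regions and the single loss of highest ratio, and no H2A.Z region lay under that loss. The starts of PRDX2 and THSD8 lie 10.3 and 10.6 kb away.

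The gained upstream region of JUNB from -8.68 to -8.08 kb (ratio 6.86), which lies on unchanged H2A.Z, contains 3 AP-1 sites, at -8429, -8365 and -8335 bp, and this stretch is shown with its sites in capitals (hg38, chr19:12783049-12783199, plus strand). The centre of the lost downstream region holds none of the 4 motifs and is shown for contrast (hg38, chr19:12796258-12796358, plus strand).
JUNB upstream AP-1 sites, gained H2A.Zac: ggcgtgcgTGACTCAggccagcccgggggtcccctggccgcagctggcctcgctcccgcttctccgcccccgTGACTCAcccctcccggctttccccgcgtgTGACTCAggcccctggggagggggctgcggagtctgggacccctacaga
JUNB downstream, lost H2A.Zac: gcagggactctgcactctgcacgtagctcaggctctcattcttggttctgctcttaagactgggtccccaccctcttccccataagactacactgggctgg

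JUND, which encodes the JUN subunit that is broadly expressed in resting cells, lies at chr19:18279694-18281622 on the minus strand with 1 exon. Gained regions framed its start. H2A.Zac was gained from 0.132 to 1.89 kb over the exon (ratio 6.85) and from -1.17 to -0.148 kb (ratio 12.4), and H2A.Z was gained within the latter from -0.652 to -0.364 kb (ratio 5.03). H2A.Zac was also gained from -11.4 to -9.73 kb (ratio 13.5). Lost H2A.Zac lay from -8.80 to -8.02 kb (ratio 5.26) and from 6.27 to 6.90 kb (ratio 6.10), the latter near the start of IQCN at 7.17 kb. JUND had the least listed H2A.Z by length of the 10 loci, in regions of 289 and 311 bp, and its gained region over the exon and both lost H2A.Zac regions lay on none. A run of 3 overlapping EGR sites starting at -397 bp lay under gained H2A.Z and H2A.Zac.

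The 250 bases before the JUND start hold a CRE, which lies in the gained H2A.Zac region, and are printed as the RefSeq promoter sequence (GRCh38.p14, chr19:18281623-18281872, minus strand).
JUND promoter: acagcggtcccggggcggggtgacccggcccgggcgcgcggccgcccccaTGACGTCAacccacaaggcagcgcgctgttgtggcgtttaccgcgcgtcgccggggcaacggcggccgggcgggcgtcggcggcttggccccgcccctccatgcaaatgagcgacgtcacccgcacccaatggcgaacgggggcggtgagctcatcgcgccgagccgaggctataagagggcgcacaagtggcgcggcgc

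ATF3 encodes a stress-induced bZIP protein that pairs with JUN proteins and can repress. Its record, chr1:212565334-212620777 on the plus strand, holds 7 annotated starts, and the canonical one, which has 4 exons, lies 43.4 kb downstream of the first. No region of either mark lay within 1 kb of the first start. At the canonical start the classes alternated: H2A.Z was lost from -0.810 to -0.549 kb (ratio 4.34) and gained from -0.206 to 0.282 kb (ratio 5.17), between unchanged regions. H2A.Zac was lost from -0.918 to -0.583 kb (ratio 4.06), unchanged from -0.689 to 1.12 kb (ratio 1.03) and gained from 0.966 to 1.23 kb (ratio 3.44). These changed regions had ratios of 5.17 or less, and the lost and gained H2A.Z regions lay 0.342 kb apart.

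The changed regions of highest ratio at ATF3 lay inside the record, between the first and the canonical start. H2A.Zac was gained from -29.2 to -28.2 kb (ratio 24.7), with a gained H2A.Z region under it (-28.6 to -28.2 kb, ratio 7.89), and from -13.5 to -11.6 kb (ratio 23.1), with no listed H2A.Z. These are the 2 gained regions with the highest ratios at the 10 genes, above 94.6% and 93.8% of the gained H2A.Zac list. H2A.Zac was also gained at -49.8 to -49.2 kb (ratio 4.91), upstream of the record, over unchanged H2A.Z. The start of GARIN4 lies 15.7 kb downstream of the canonical start. The region at -13.5 kb contains 2 AP-1 sites, and the first is shown because it lies in the acetylation gain without listed H2A.Z (hg38, chr1:212595712-212595812, plus strand).
ATF3 AP-1 site: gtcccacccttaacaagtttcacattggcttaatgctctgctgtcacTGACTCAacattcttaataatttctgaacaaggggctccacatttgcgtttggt

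EGR1 encodes a zinc finger factor and is among the most used immediate-early markers, activated by SRF with its ELK partners. It lies at chr5:138465479-138469303 on the plus strand with 2 exons. EGR1 was the gene with the most gained H2A.Z: 4 regions were gained, 2 unchanged and 0 lost. H2A.Z was gained from -1.93 to -1.37 kb (ratio 9.32), from -1.17 to -0.150 kb (ratio 5.21) and from 0.017 to 0.431 kb in exon 1 (ratio 7.98). H2A.Zac was gained from -2.04 to -0.366 kb (ratio 17.4, above 89.8% of the gained list) and unchanged over the start itself, from -0.365 to 0.260 kb (ratio 1.35). Behind the gene, a gained H2A.Zac region of 3311 bp (9.93 to 13.2 kb, ratio 14.1) covered the gained H2A.Z region from 10.5 to 11.5 kb (ratio 8.76). Farther upstream H2A.Zac had 4 lost and no gained regions, from -8.60 to -4.41 kb (ratios 4.48, 5.16, 11.0 and 4.84). Unchanged H2A.Zac from -8.67 to -8.09 kb (ratio 1.90) covered the first of them. Another unchanged H2A.Zac region, from -4.56 to -4.29 kb (ratio 1.63), overlapped the last. H2A.Z was listed as unchanged from -8.69 to -8.18 kb, and no lost H2A.Z lay under the 4 lost H2A.Zac regions.

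The EGR1 upstream sequence holds 5 CArG boxes, which fell into different classes of chromatin. Those at -418 and -380 bp lay in gained H2A.Z and gained H2A.Zac, that at -364 bp in gained H2A.Z and unchanged H2A.Zac, and those at -105 and -83 bp in unchanged H2A.Zac, between the gained H2A.Z regions. Both stretches are printed so that the boxes can be set against these borders, the upstream cluster from hg38 (chr5:138465053-138465153, plus strand) and the 250 bases before the start from RefSeq (GRCh38.p14, chr5:138465229-138465478, plus strand).
EGR1 upstream CArG boxes: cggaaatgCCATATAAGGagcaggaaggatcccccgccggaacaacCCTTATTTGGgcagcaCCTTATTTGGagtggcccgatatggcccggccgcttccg
EGR1 promoter: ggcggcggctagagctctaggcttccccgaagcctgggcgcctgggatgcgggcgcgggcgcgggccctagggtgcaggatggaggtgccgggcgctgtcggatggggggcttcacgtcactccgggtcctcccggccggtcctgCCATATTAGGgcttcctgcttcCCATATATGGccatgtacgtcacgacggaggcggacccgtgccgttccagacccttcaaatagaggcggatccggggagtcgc

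EGR3, which encodes a zinc finger factor of the same family, lies at chr8:22687659-22693480 on the minus strand with 2 exons. A single wide unchanged H2A.Z region (-2.76 to 0.748 kb, 3508 bp, ratio 0.48) spanned its start, and this was the widest unchanged region of the 10 loci. Above it, H2A.Zac was lost from -0.883 to 0.082 kb (ratio 10.3) and gained from -2.82 to -2.44 kb (ratio 5.25), with unchanged H2A.Zac between -2.44 and -0.875 kb and from -0.041 to 0.721 kb. This loss had the highest ratio among the lost regions in the TSS windows of the 10 genes. A lost H2A.Z region of ratio 4.01 lay far downstream, from 11.3 to 11.7 kb, without H2A.Zac. The EGR genes thus differed, with H2A.Zac lost over unchanged H2A.Z across the EGR3 start and gained over gained H2A.Z just upstream of the EGR1 start.

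The pattern around the starts was compared in 100-bp bins over 2 kb to each side (80 bins for both marks together). Likeness is the share of bins with the same class among bins with a region in either gene. Only the best match of each gene is given, and it was not set beside the likeness of other protein-coding genes. Unchanged H2A.Z alone was present at 67.8% of protein-coding TSS windows with an H2A.Z region. FOSL2 and ATF3 were the most alike pair, with the same class in 47 of 61 bins (77.0%). JUN shared 49 of 66 bins with FOSL2 (74.2%), EGR3 43 of 62 (69.4%) and FOS 41 of 62 (66.1%). Each of these genes had a wide unchanged region of H2A.Z or H2A.Zac at or just before its start. The others had no close match: FOSL1 and JUND shared 17 of 52 bins (32.7%), JUNB and JUN 23 of 63 (36.5%), EGR1 and JUND 10 of 59 (16.9%), and FOSB and ATF3 11 of 71 (15.5%). Among genes of related pathways, the most alike were PLK3 for FOS (75.9%), FOSL2 (80.6%) and EGR3 (76.4%), SPRY4 for JUN (82.0%), NR4A2 for ATF3 (69.4%) and EGR1 (29.5%), NAB2 for JUNB (27 of 54 bins), KLF6 for JUND (45.5%), IER2 for FOSL1 (41.8%) and SPRY1 for FOSB (41.2%).

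Genes of the same pathways were counted in the TSS window for comparison. Of 19 other AP-1 partners and related bZIP factors, all had an H2A.Zac region, 12 a gained and 5 a lost one, and of 17 with an H2A.Z region, 3 had a gained and 2 a lost one (17.6% and 11.8%, beside 22.3% and 10.5% of all genes with a region). The highest H2A.Zac ratios were those of MAF (gained, 23.3), BACH1 (gained, 13.8) and CREM (gained, 12.4), and of JDP2 (lost, 22.9), BATF (lost, 15.8) and BATF3 (lost, 10.8). MAF gained H2A.Z as well (ratio 19.9), and JDP2 and BATF3, which pair with JUN proteins, lost it (ratios 7.80 and 5.25). The shares for H2A.Zac, 63.2% gained and 26.3% lost, stood beside 57.3% and 26% of all protein-coding genes.

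The MAP kinase and SRF genes, which carry the signals that switch on immediate-early transcription, were counted in the same way. Of 23 genes with an H2A.Zac region, 20 had a gained one (87.0%), beside 57.3% of all protein-coding genes with a region, and 5 a lost one (21.7%, beside 26%). This was the highest gained share among the 5 pathway groups, and the difference from all genes was not tested. For H2A.Z, 7 of 23 had a gained and 2 a lost region (30.4% and 8.70%, beside 22.3% and 10.5%). The highest gained H2A.Zac ratios were at MAPK8 (9.75), which encodes the JUN kinase JNK1, SRF (8.79) and HRAS (8.30), and the highest lost ones at RPS6KA3 (11.0), RPS6KA1 (10.6) and MAP2K2 (7.28). In the same windows RPS6KA3 and MAP2K2 also had gained H2A.Zac (5.90 and 6.23), and MAPK8 lost H2A.Zac (4.56). MAPK8 and SRF also gained H2A.Z (ratios 4.52 and 3.81), and RPS6KA1, which encodes a ribosomal S6 kinase downstream of ERK, lost it (ratio 8.53).

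Of the EGR family and its co-repressors, NAB2 (ratio 8.09) and NAB1 (4.44) had gained and EGR2 (3.44) lost H2A.Zac, while EGR4 had no H2A.Zac region, and H2A.Z was unchanged at all 4. Among 27 other immediate-early genes, 22 had an H2A.Zac region, 12 a gained one (54.5%, beside 57.3% of all genes) and 7 a lost one (31.8%, beside 26%), with the highest ratios at KLF10 (gained, 15.8), IER2 (gained, 15.2), MCL1 (gained, 13.0), BTG2 (lost, 11.4), CCN1 (lost, 10.2) and NR4A3 (lost, 6.74). BTG2 had gained H2A.Zac in the same window as well (8.55). Of the 21 with H2A.Z, 4 had a gained (19.05%, beside 22.3%) and 0 a lost region (beside 10.5%). The 10 feedback inhibitors, phosphatases and SPRY or SPRED proteins that switch the pathway off, had gained H2A.Zac at 4 and lost H2A.Zac at 4 of 9 starts (44.4% each, beside 57.3% and 26%), led by DUSP1 (gained, 7.61), SPRY4 (gained, 5.13), SPRED2 (gained, 4.88), SPRED1 (lost, 6.88), DUSP5 (lost, 6.36) and SPRY1 (lost, 5.95). SPRED1 also had gained H2A.Zac (4.55). For H2A.Z, 2 of 9 starts had a lost region (22.2%, beside 10.5%), at DUSP5 (6.19) and DUSP2 (4.26). A gained one was present at 1 start (11.1%, beside 22.3%), that of SPRY2 (5.30), where H2A.Zac was lost in the same window (5.36). DUSP2 and SPRY2 were named after their values were seen. For H2A.Zac, both directions were present in each of the 5 groups, whereas for H2A.Z the EGR group had neither and the other immediate-early genes no lost region.

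**Figure D5:**
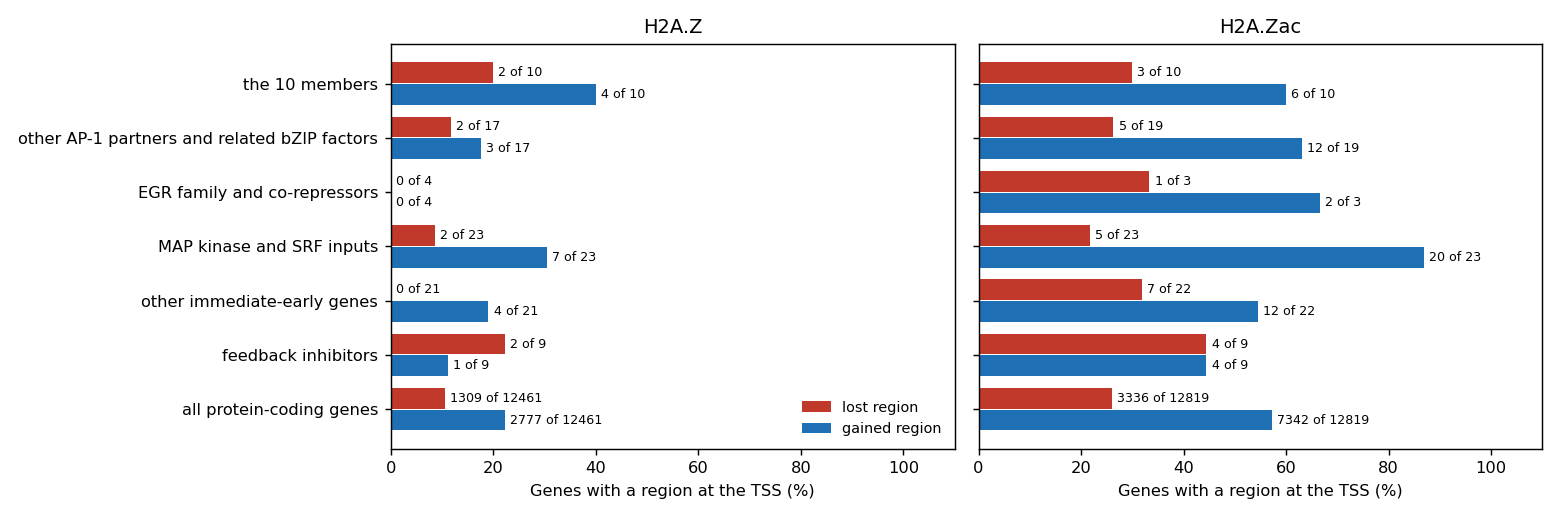
Share (%) of genes with a lost (red) or gained (blue) region in the TSS window, among genes with a region of the mark there, for H2A.Z (left) and H2A.Zac (right), with the counts beside the bars; the 10 members are the AP-1 and EGR genes described. The MAP kinase and SRF group has gained H2A.Zac at 20 of 23 starts, and the 10 genes at 6 of 10, beside 7342 of 12819 protein-coding genes.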

How the data were processed

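H2A.Z and H2A.Zac ChIP-seq lists from K562 cells expressing WT or ΔTRRAP EP400 were read as deposited. Per the submitters' processing notes, Bowtie2 2.4.5, MACS2 2.2.7.1, bedtools 2.30.0 and deepTools 3.5.1 were used with hg38. The authors compared merged replicates with MACS2 bdgdiff, scaled to effective depth, and retained regions overlapping reproducible peaks (IDR up to 0.05) over 25% of their length or more. The deposited score is their log10 likelihood ratio, which served here to rank regions and set thresholds. Parts of 1 peak can appear as regions of several classes.

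The genes and gene lists were chosen with earlier results of these data known. The genes named are the 10 AP-1 and EGR genes, the protein-coding genes that start within their loci and, for each list and direction, the 3 genes with the highest H2A.Zac score in the TSS window, besides the genes most alike in pattern and the marker genes. Outside this rule, DUSP2, SPRY2 and EGR4 were named after their values were seen, and ERCC1 and HOOK2 because their records overlap loci. Loci, TSSs and exons were taken from GENCODE release 44, promoters from RefSeq (GRCh38.p14), and other sequences from hg38. The RefSeq entries of ATF3 are at other starts than the canonical one. Overlaps and shares were computed with Python 3.11.15, numpy 2.4.6, pandas 2.3.3, scipy 1.17.1 and pyfaidx 0.9.0.4, plots with matplotlib 3.10.9. The code was tested on simulated data, and its overlaps were checked against bedtools 2.31.1, with 0 differences in 800 intervals. Sample depths are unknown here, and single regions have no stated precision. The alternatives were other flanks, TSS windows, annotated starts, score thresholds, widths and overlaps, merging of neighbors, base pairs in place of regions, other genes' starts left out, and each gene left out in turn. Input, signal tracks and expression were not analysed here. One lymphoid marker gene is not reported here.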

Additional observations from a re-analysis of the deposited data

How the results depend on the processing

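The gained share of changed H2A.Zac regions stayed between 40.0 and 59.1% over 19 alternatives (47.6% as reported), with the ends set by leaving out JUNB and by flanks of 2 kb. For H2A.Z it ran from 38.5%, without EGR1, to 72.7%, with flanks of 2 kb, over 18 alternatives (52.9% as reported), and with a ratio of at least 10 it was 0%, from 1 region. Leaving out each gene in turn gave H2A.Zac shares of 40.0 to 55.6% and H2A.Z shares of 38.5 to 64.3%. Leaving out the 3 genes on chromosome 19, an alternative chosen after seeing the data, gave 45.8% and 61.5%. With a ratio of at least 10, 1 gene had lost and 3 had gained H2A.Zac in the TSS window (3 and 6 as reported), and 0 had lost and 0 had gained H2A.Z (2 and 4 as reported). Lost H2A.Z was found at 0 genes with a ratio of at least 5, at 1 with a TSS window of 500 bp to each side and at 1 with regions of at least 500 bp, and the latter left 2 genes with gained H2A.Z. With an overlap of 50% the share of H2A.Zac on H2A.Z was 49.4%, and with 1 bp it was 69.9% (61.4% as reported). The gene counts given before the overlap shares fall because the stricter rules leave fewer regions or a narrower window. Both overlap settings kept all 83 H2A.Zac regions.

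No paired analysis was possible because the lists hold 1 comparison of merged replicates per mark, which also leaves no replicate to omit. The lists give neither reads nor inputs, so counting error in a single region and the level of a mark below the authors' filters are unknown here.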
